A study of Mus musculus with 8 samples.

Results

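Conventional CD4 T cells (Tcon) of the small intestine, called gut here, were compared with Tcon of the spleen on 4 of the 8 Illumina mouse bead arrays of the study. The 4 arrays form 2 pairs by genotype label, a control pair and a K14 pair, each with 1 gut and 1 splenic array. Genes were described where gut and spleen differed at least 2-fold in the same direction in both pairs and were detected on both arrays of the brighter tissue. Of 7916 genes tested, 452 were higher in gut Tcon by this rule and 276 were lower, 9.2% of all genes tested in either direction.

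The control mice were C57B6 animals of genotype MHCII+/-, FOXP3GFP, heterozygous for MHC class II. The K14 mice were C57B6 animals of genotype K14Aβb, FOXP3GFP, which by the study's design text have no MHC class II outside the thymus. In this transgene the keratin 14 promoter drives the Aβb chain. H2-Ab1, which encodes this chain, was higher on the splenic K14 arrays than on the control arrays. It read 13.20 against 11.63 in splenic Tcon and 13.38 against 11.02 in splenic Treg. H2-Aa, H2-Eb1 and Cd74 were likewise higher on both splenic K14 arrays. Gut Tcon K14 was higher for all of these genes too, with H2-Ab1 at 12.87 against 12.25 and H2-Eb1 at 13.50 against 11.29. In gut Treg H2-Ab1 read 10.94 in K14 and 10.99 in control, and the other genes were higher in K14. In splenic K14 Tcon 11 of 20 B and plasma cell genes were detected, against 8 in splenic control Tcon. Of 30 myeloid genes 18 were detected there, against 15 in splenic control Tcon. In gut Tcon, K14 and control gave 17 and 13 myeloid genes and 7 and 8 B and plasma cell genes. The part of such cells in the MHC class II values was not tested. Which part of the gene the H2-Ab1 probe covers was not tested, and a probe outside the altered part checks nothing. These values therefore do not check the genotype, and control and K14 below name arrays by their labels. All mice carried a GFP reporter of Foxp3, were 7 to 14 weeks old and of both sexes, and no group received a treatment that the labels name. Tcon were sorted as live cells positive for TCRb and CD4 and negative for CD8, B220 and GFP, and regulatory T cells (Treg) as the GFP-positive cells of the same gate. Every array held RNA pooled from several mice, so each combination of tissue, cell type and genotype was measured once, and a p-value below reflects how these pooled arrays vary. Gut and spleen were prepared separately, so tissue and preparation cannot be told apart. The arrays measured bulk RNA, in which fewer cells of a type and less RNA per cell cannot be told apart.

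T cells that circulate through spleen and lymph nodes use homing receptors such as Ccr7 and keep a quiescent programme set by factors such as Lef1. T cells lodged in the gut wall carry retention molecules instead, among them Cd69, which opposes exit along sphingosine-1-phosphate, and the integrin subunit Itgae (CD103), which binds E-cadherin on epithelial cells. Many gut CD4 T cells are antigen-experienced cells able to make cytokines such as Il17a and Ifng. Immediate early genes such as Fos respond within minutes to antigen receptor signals and also to stress and handling of cells, and heat shock genes respond to heat and damaged proteins.

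Between 8822 and 9360 of 25697 probes were detected on the K14 Tcon arrays and between 9224 and 9677 on the control Tcon arrays, with median intensities of 218.5 to 233.3. Over the 7916 genes, the log2 values correlated at r = 0.957 between both splenic arrays and 0.940 between both gut arrays. Between tissues the correlation was 0.921 in the control pair and 0.901 in the K14 pair. These are correlations across genes, which are not independent replicates, and the number of arrays limits the precision of every value below.

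The label of conventional T cells was checked against its markers. Of 14 T cell identity genes on the array, 13 or 14 were detected on each Tcon array, and none of them met the 2-fold rule. Their median difference was 0.05 on the log2 scale, beside −0.09 over all genes tested. Cd3e, a chain of the T cell receptor complex, had log2 values of 14.97 (control) and 14.71 (K14) in spleen and of 14.96 and 15.19 in gut. The probe of Foxp3, the defining factor of Treg, stayed near background on all 8 arrays, Treg arrays included, and does not check the sort. Of 18 Treg genes on the array, all were detected on each Treg array, 13 in splenic control Tcon, 15 in splenic K14, 14 in gut control and 16 in gut K14. Their summed intensity was 14520 and 13500 in splenic Tcon, 107794 and 99885 in gut Tcon, and 145549 to 377717 on the Treg arrays. Il2ra and Ikzf2 were detected on no Tcon array, and Ikzf4 in gut K14 alone, at 7.71 against 6.30 in splenic K14. The part of Treg in the gut Tcon values was not tested.

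Markers of other cell types were not evenly spread over the 4 Tcon arrays. Of 32 exocrine pancreas genes on the array, 30 were detected in the gut control sample, 7 in gut K14, 4 in splenic control and 3 in splenic K14. Their summed intensity was 87530 in gut control and 22698 in gut K14, against 1745 and 3690 in spleen. The gut K14 sum rests mostly on Tff2, far the brightest of them there at 14.14. The elastase gene Cela2a shows the same imbalance, at 15.21 in gut control and undetected on the 3 other Tcon arrays. Of 31 intestinal epithelial genes, 17 were detected in gut control, 10 in gut K14, 8 in splenic control and 6 in splenic K14. Their summed intensities were 26599, 23780, 8352 and 32123 in the same order. The splenic K14 sum rests mostly on Lyz1, far the brightest of them there at 14.85. Of 20 B and plasma cell genes, 11 were detected in splenic K14 and 7 or 8 on the other Tcon arrays. Ms4a1 was undetected on all 4, whereas Cd79b and Cd22 were detected on all 4. Of 30 myeloid genes, 13 to 18 were detected per array. Itgax was undetected on all 4, whereas Cst3, C1qb and Apoe were detected on all 4. Of 24 stromal and endothelial genes, 9 were detected in gut control, 7 in gut K14, 6 in splenic control and 4 in splenic K14. Col1a1 was undetected throughout, whereas Col4a1 and Acta2 were higher in gut by the rule. They were 2 of 11 genes of that list tested (18.2%, beside 5.71% of all genes), and none was lower. Col4a1 read 8.72 in gut control and 8.71 in gut K14 and was undetected in spleen. Acta2 read 10.34 in gut control and 9.98 in gut K14, against 7.51 in splenic control and no detection in splenic K14. Of 16 mast cell, erythroid and platelet genes, 5 were detected in gut control, 2 in gut K14 and 1 on each splenic array. Cd8a was undetected on all 4 Tcon arrays, whereas Cd8b1, which encodes the other CD8 chain, was detected on all 4. The part of these cells in the differences below was not tested, and without the genes of these 7 lists the rule leaves 433 genes higher and 267 lower in gut Tcon. That comparison was chosen after the data were seen. The lists are short and lack genes such as Ltf, Camp and Slc4a1, described below. The counts therefore do not measure the part of other cells.

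**Figure D1:**
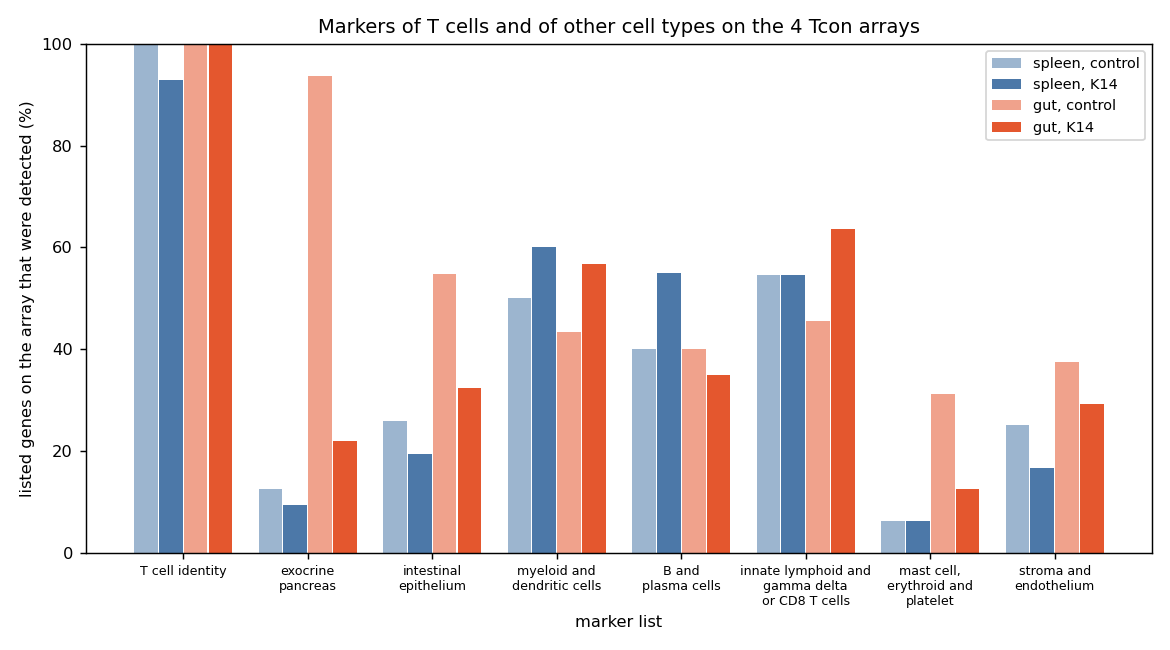
Share of each marker list's genes on the array that were detected (percent, vertical axis) on the 4 Tcon arrays, 1 bar per array. T cell markers were detected on nearly all arrays, whereas 30 of 32 exocrine pancreas genes were detected in the gut control sample and 7 of 32 in gut K14.

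By the rule of both pairs, more genes were higher than lower in gut Tcon. The 452 genes higher in gut made up 5.71% of the genes tested and the 276 lower genes 3.49%, with median differences of 2.21 and −1.77 on the log2 scale. In the control pair alone 854 genes were higher in gut and in the K14 pair alone 1011, so the shared genes were 52.9% and 44.7% of each. Lower in gut were 737 genes in the control pair and 891 in the K14 pair, of which the shared 276 made up 37.4% and 31.0%. Of the genes 2-fold higher in gut in the control pair, 57 were 2-fold lower in the K14 pair, and of those lower 65 were higher. On both splenic arrays 145 of the 452 genes were undetected, and on both gut arrays 73 of the 276. Just inside the rule lay Rel, with 1.43 in the control pair and 1.0 in the K14 pair, and just outside it Ccr6, with 0.99 and 5.97, both as log2 differences.

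At an adjusted p under 0.05 (Benjamini-Hochberg over the 7916 genes), limma's moderated test passed 36 genes. Of these 32 were higher in gut Tcon (0.404% of the genes tested) and 4 lower (0.0505%), and all 36 had the same direction in both pairs. The test's error is the spread between pairs, so it favours genes alike in both. That shared direction is therefore no added support. Each difference is the mean of both pairs and its standard error (SE) pools the spread over the Tcon and the Treg pairs, with 2 residual degrees of freedom. The lowest adjusted p was 0.0453, shared by many genes, so the calls lie close to the threshold. At an unadjusted p under 0.05 there were 1358 genes. No gene passed when either Tcon pair was left out, when the 4 Tcon arrays were fitted alone, or when undetected probes were kept, with 823 to 1954 genes at an unadjusted p under 0.05 in these fits. Below, "rose" and "fell" are used of the 36 genes only. Gene lists are described by the members that passed the detection filter. A member that passed through the gut arrays alone had to be higher there, so counts and medians of lists are descriptions with no test. With 2 arrays per tissue, groups that do not overlap are likewise a description and add no support to a gene's p-value.

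**Figure D2:**
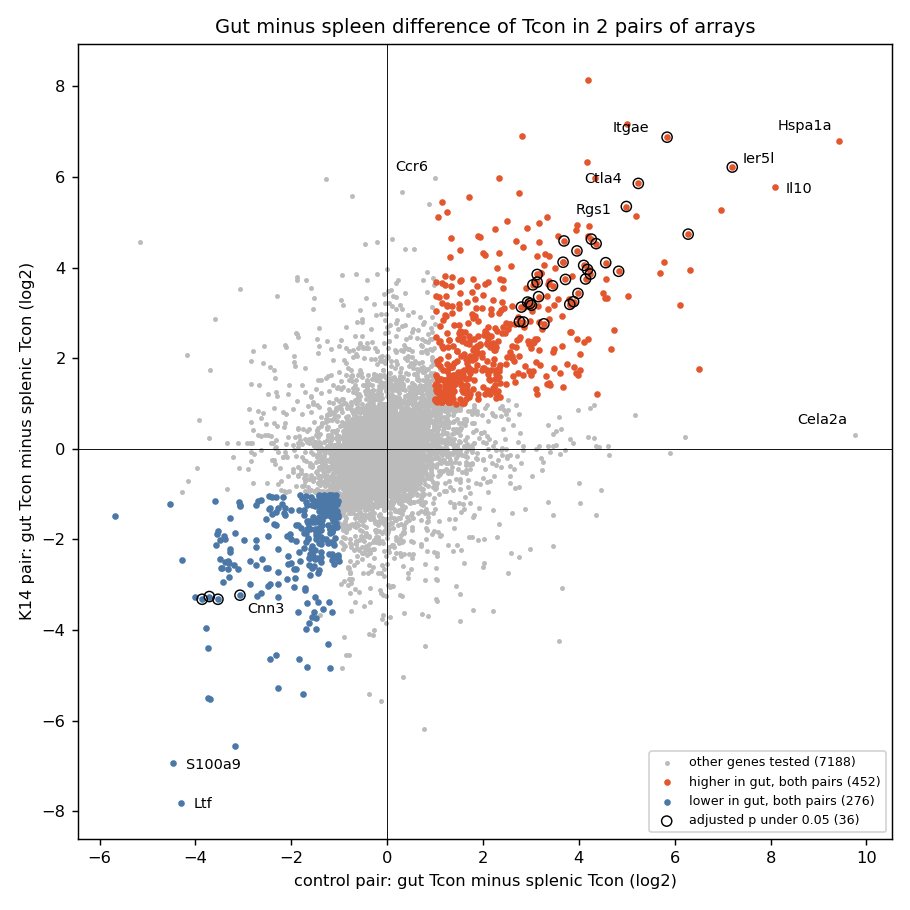
Gut minus spleen log2 difference of each of the 7916 genes in the control pair (horizontal axis) and in the K14 pair (vertical axis), 1 point per gene, red and blue where the rule of both pairs was met and ringed where the adjusted p was under 0.05. The 36 ringed genes lie near the diagonal because the test favours genes alike in both pairs. Cela2a was high in the control pair and Ccr6 in the K14 pair.

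Genes of tissue residency were mostly higher in gut Tcon. Of 29 listed genes 19 were tested, of which 12 (63.2%, beside 5.71% of all genes) were higher by the rule and none lower. The list's median difference was 1.79, beside −0.09 over all genes, and 1.06 with undetected members kept, and 4 members rose. Itgae had log2 values of 7.74 in splenic control and 6.92 in splenic K14, against 13.59 in gut control and 13.81 in gut K14. Both gut arrays thus lay far above both splenic arrays, and all 5 Itgae probes moved the same way. Itgae rose by 6.36 ± 0.40 (SE, adjusted p = 0.0453).

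Ctla4, the inhibitory receptor for CD80 and CD86, read 10.02 and 9.31 in spleen (control, then K14, as in all sentences below) and 15.26 and 15.16 in gut. Ctla4 rose by 5.55 ± 0.27 (adjusted p = 0.0453). Rgs1, which dampens signalling of chemokine receptors, read 10.95 and 10.51 in spleen and 15.94 and 15.86 in gut. The gut control value of Rgs1 lies near the top of the scanner's scale (an intensity above 60000), so its rise of 5.17 ± 0.25 (adjusted p = 0.0453) may be compressed. Bhlhe40, a transcription factor that regulates T cell cytokine production, read 8.53 and 8.82 in spleen and 12.88 and 13.35 in gut, a rise of 4.44 ± 0.27 (adjusted p = 0.0453).

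Cd69 read 13.73 and 14.48 in spleen and 15.87 in gut control, and gut K14 lay slightly above that, near the top of the scale. Its groups did not overlap, and its difference of 1.83 ± 0.27 missed the threshold (adjusted p = 0.0932). Rgs16, Litaf, Icos, Csrnp1, Xcl1, P2rx7 and Gpr34 completed the 12, with mean differences of 1.10 (Gpr34, a lipid receptor) to 3.69 (Rgs16, another regulator of G protein signalling). Cxcr6, the receptor of Cxcl16, was outside the rule with 0.79 in the control pair and 1.07 in the K14 pair.

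**Figure D3:**
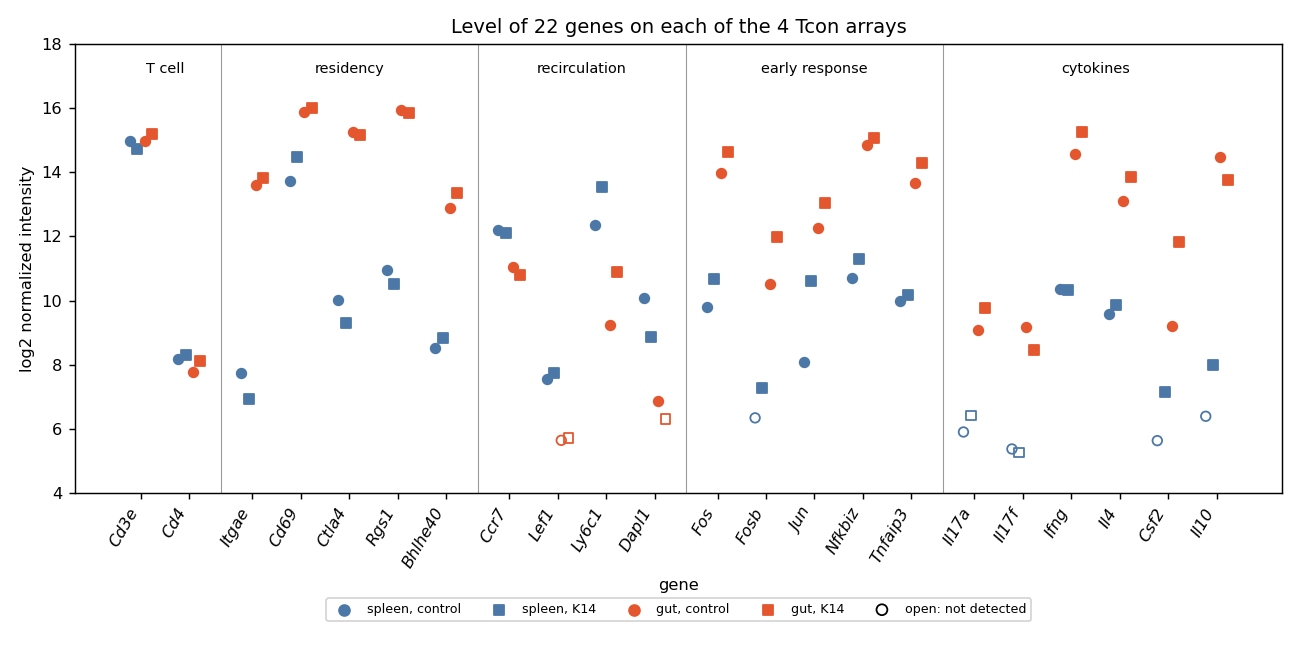
Log2 normalized intensity (vertical axis) of 22 genes on each of the 4 Tcon arrays, blue for spleen and red for gut, circles for control and squares for K14, open where the probe was not detected. Values of Cd3e overlap between tissues and Cd4 differs by −0.41 and −0.21, while the residency, early response and cytokine genes lie higher on both gut arrays than on both splenic arrays.

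Genes of recirculation and of the naive state went mostly the other way. Of 36 listed genes 24 were tested, of which 5 (20.8%, beside 3.49% of all genes) were lower in gut by the rule. The 2 higher members made up 8.33%, beside 5.71% of all genes, and none of the 24 passed the test. Below 0 in both pairs were 16 of the 24, beside 3012 of all 7916 genes. The median difference was −0.74, and −0.43 with undetected members kept. Ccr7 read 12.21 and 12.11 in spleen and 11.06 and 10.79 in gut, a difference of −1.24 ± 0.33 (adjusted p = 0.203). Lef1 read 7.55 and 7.75 in spleen and was undetected on both gut arrays, at least 2.02-fold lower (adjusted p = 0.0706). Such bounds set the bright group against the lowest signal that was detected on each array of the dim tissue. Ly6c1, a GPI-linked surface protein, read 12.35 and 13.55 in spleen and 9.25 and 10.90 in gut (adjusted p = 0.0926). Its 2 gut values therefore lay below both splenic values in spite of a wide spread between genotypes. Dapl1 and Atp1b1, the latter a subunit of the sodium pump, were the other members lower by the rule, with mean differences of −2.88 and −1.94.

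The members of that list higher in gut were Gpr183, the oxysterol receptor that guides cells within lymphoid tissue, and Cxcr5, the receptor of Cxcl13. Gpr183 differed by 1.31 in the control pair and 1.47 in the K14 pair, and Cxcr5 by 1.82 and 1.53. Klf2, which maintains expression of homing receptors, stayed within 2-fold in both pairs, at −0.54 and −0.21. S1pr1 was not analysed here.

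Of 20 listed chemokine, leukotriene and metabolite receptors and integrins 9 were tested, and none passed the test. Of the 9, 4 (44.4%, beside 5.71% of all genes) were higher in gut Tcon by the rule. The list's median of 1.04 became 0.08 with undetected members kept. Ltb4r1, the leukotriene B4 receptor, read 8.24 and 8.48 in spleen and 10.57 and 12.81 in gut. Ccrl2, an atypical chemokine receptor, differed by 2.11 and 3.68, Ffar2, the receptor of short-chain fatty acids, by 2.53 and 2.65, and Cxcr3 by 1.01 and 1.06. Ffar2 was higher in K14 than in control in both tissues, at 9.78 and 12.24 in spleen and 12.31 and 14.89 in gut. Ccr6, the receptor of Ccl20, was undetected in splenic K14 and read 9.40 in splenic control, 10.39 in gut control and 11.86 in gut K14. Its 2 probes were not both higher in gut in both pairs. Ccr9 was not analysed here. Of 10 listed chemokine genes 7 were tested, of which Ccl4, Cxcl10 and Xcl1 were higher by the rule and Ccl9 lower. These shares of 42.9% and 14.3% stand beside 5.71% and 3.49% of all genes. Ccl4, an inflammatory chemokine, read 9.96 and 9.88 in spleen and 14.79 and 13.80 in gut and rose by 4.37 ± 0.31 (adjusted p = 0.0453). Ccl3 differed by 3.52 in the control pair and by 0.40 in the K14 pair.

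Immediate early genes were higher in gut Tcon nearly throughout. Of 38 listed genes 27 were tested, of which 18 (66.7%, beside 5.71% of all genes) were higher by the rule and none was lower. Above 0 in both pairs were 26 of the 27, beside 2084 of all 7916 genes. The list's median was 2.22. Fos, an AP-1 subunit, read 9.80 and 10.67 in spleen and 13.99 and 14.63 in gut and rose by 4.07 ± 0.27 (adjusted p = 0.0453). Rgs1, described above, is the other member that rose. Fosb, a related subunit, read 6.34 and 7.28 in spleen and 10.53 and 11.98 in gut (adjusted p = 0.0733). Jun, the usual partner of Fos, read 8.08 and 10.61 in spleen and 12.26 and 13.04 in gut. The splenic samples of Jun differed from each other by more than the gut samples did, and its adjusted p was 0.167.

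Atf3, Klf4 and Dusp4 were undetected in both splenic samples and detected in both gut samples, at least 5.17-fold, 5.0-fold and 7.22-fold higher. Atf3 and Klf4 are stress-responsive transcription factors and Dusp4 is a phosphatase that switches off MAP kinases. Gadd45b, a stress response gene, read 10.10 and 11.08 in spleen and 14.66 and 14.82 in gut (adjusted p = 0.0569). Dusp1, another MAP kinase phosphatase, differed by 3.84 and 2.59. Nr4a3, an orphan receptor induced by antigen receptor signals, was 3.25 higher in the control pair and −0.28 in the K14 pair, and Nr4a2 stayed within 2-fold in both. Nr4a1 was not analysed here.

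Genes of NF-kB and its feedback inhibitors were higher in part. Of 22 listed genes 17 were tested, of which 6 (35.3%, beside 5.71% of all genes) were higher by the rule and none lower. The list's median was 1.05. Nfkbiz, a nuclear IkB protein, read 10.71 and 11.31 in spleen and 14.86 and 15.06 in gut and rose by 3.95 ± 0.24 (adjusted p = 0.0453). Tnfaip3, the ubiquitin-editing enzyme A20, read 9.99 and 10.18 in spleen and 13.66 and 14.30 in gut and rose by 3.90 ± 0.29 (adjusted p = 0.0453). Neither gene's groups overlapped. Cd83, Nfkbid, Nfkbia and Rel were the other members, with mean differences of 3.06, 2.20, 1.5 and 1.21. The subunit Rela differed by 0.14 and 0.18.

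Hspa1a, the inducible HSP70 chaperone, had the largest difference of all genes by the smaller of its pair differences. It read 5.62 and 6.98 in spleen and 15.04 and 13.77 in gut, with detection in splenic K14 and none in splenic control. The mean difference of 8.10 ± 0.84 missed the threshold (adjusted p = 0.0590). Hspa1b is nearly identical in sequence, and which of both genes the probe measured was not tested. Of 16 listed heat shock genes 10 were tested, and Hspa1a alone met the rule (10%, beside 5.71% of all genes higher). The list's median was 0.52, and Hspa8, the constitutive relative, differed by 0.08 and 0.01.

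The promoters of 5 of these and related genes are shown, because their genes were higher together in both pairs and because they carry, or lack, the letters bound by the factors named above. Sequences run from 250 bases before to 50 after the annotated start, in RefSeq coordinates of GRCm38.p6, and capitals mark matches on either strand to the AP-1 motif TGANTCA, the cyclic AMP response element TGACGTCA, the NF-kB motif (GGG, any 2 bases, then TTTCC) or the heat shock motif GAANNTTC. Fos is shown for a gene that rose without a match, Il17a and Tnfaip3 for the AP-1 motif, Tnfaip3 and Ahrr for the NF-kB motif and Hspa1a for the heat shock motif.
Fos promoter, chr12:85473640-85473939, plus strand: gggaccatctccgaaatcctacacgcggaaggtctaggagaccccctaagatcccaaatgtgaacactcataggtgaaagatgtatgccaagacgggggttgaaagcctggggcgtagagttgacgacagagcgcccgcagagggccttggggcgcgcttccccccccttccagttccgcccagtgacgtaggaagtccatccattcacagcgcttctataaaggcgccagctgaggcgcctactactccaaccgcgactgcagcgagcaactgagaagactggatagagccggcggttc
Il17a promoter, chr1:20730655-20730954, plus strand: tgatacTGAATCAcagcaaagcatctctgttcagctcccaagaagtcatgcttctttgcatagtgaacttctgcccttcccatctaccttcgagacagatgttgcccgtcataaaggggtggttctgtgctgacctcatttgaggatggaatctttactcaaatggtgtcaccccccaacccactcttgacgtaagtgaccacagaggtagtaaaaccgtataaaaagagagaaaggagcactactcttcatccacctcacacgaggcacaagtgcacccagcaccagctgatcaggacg
Tnfaip3 promoter, chr10:19015361-19015660, minus strand: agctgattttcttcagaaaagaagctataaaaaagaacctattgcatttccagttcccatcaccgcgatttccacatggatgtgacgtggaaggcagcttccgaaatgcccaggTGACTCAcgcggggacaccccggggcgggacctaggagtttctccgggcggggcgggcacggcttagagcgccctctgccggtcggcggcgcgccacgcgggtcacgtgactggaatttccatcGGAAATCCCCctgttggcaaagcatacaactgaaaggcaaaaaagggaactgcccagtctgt
Ahrr promoter, chr13:74292282-74292581, minus strand: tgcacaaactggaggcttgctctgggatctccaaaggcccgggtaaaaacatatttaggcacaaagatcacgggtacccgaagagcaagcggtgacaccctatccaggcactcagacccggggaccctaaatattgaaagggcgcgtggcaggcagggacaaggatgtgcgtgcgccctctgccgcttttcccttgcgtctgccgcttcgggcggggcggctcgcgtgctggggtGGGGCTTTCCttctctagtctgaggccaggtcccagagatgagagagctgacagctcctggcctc
Hspa1a promoter, chr17:34972107-34972406, minus strand: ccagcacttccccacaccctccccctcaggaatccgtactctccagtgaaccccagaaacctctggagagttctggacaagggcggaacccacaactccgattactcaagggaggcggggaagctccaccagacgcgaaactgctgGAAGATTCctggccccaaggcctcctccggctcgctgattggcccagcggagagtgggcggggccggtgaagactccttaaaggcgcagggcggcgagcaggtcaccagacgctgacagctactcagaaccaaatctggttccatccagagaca

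In Tnfaip3, which has 2 promoters in the table and is shown by its entry listed on top, the capitals are an AP-1 match followed by an NF-kB match near the start. A promoter was found for 346 of the 452 genes higher in gut and for 220 of the 276 lower genes. The AP-1 letters occurred in 10.7% of the former and 2.73% of the latter, beside 5.40% of all 6503 tested genes with a promoter and 7.81% of all 32851 promoters. The NF-kB letters occurred in 3.76%, 0.455%, 1.78% and 1.63% of the same sets. The heat shock letters occurred in 6.07%, 6.82%, 5.81% and 7.86%, and the cyclic AMP response element in 2.31%, 4.09%, 3.03% and 1.79%. The 4 motifs cannot stand for each other's letters and no matches overlap in the promoters printed. The shares are descriptions with no test: a match is not a bound site, and a missing match says only that the letters are not in this window.

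Part of the cytokine genes of several helper lineages was higher in gut Tcon. Of 28 listed genes 18 were tested, of which 10 (55.6%, beside 5.71% of all genes) were higher by the rule and none was lower. The list's median of 1.79 became 0.52 with undetected members kept, and 2 members rose. Il17a was undetected on both splenic arrays and read 9.07 and 9.77 in gut. Its rise was at least 6.09-fold, with a fitted difference of 3.26 ± 0.23 (adjusted p = 0.0453). Il17f, its close relative, was likewise undetected in spleen, read 9.18 and 8.46 in gut and rose at least 4.01-fold (adjusted p = 0.0453).

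Ifng, the defining cytokine of type 1 helper cells, read 10.36 and 10.33 in spleen and 14.58 and 15.26 in gut. Its difference of 4.57 ± 0.40 lay just outside the threshold (adjusted p = 0.0527). Il10, an inhibitory cytokine, was undetected in splenic control, read 7.98 in splenic K14 and read 14.49 and 13.75 in gut (adjusted p = 0.0576). For both genes the gut arrays lay far above the splenic arrays, which is a description with no test.

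Il4, the cytokine of type 2 help, read 9.59 and 9.85 in spleen and 13.09 and 13.85 in gut (adjusted p = 0.0733). Csf2, which encodes GM-CSF, read 9.19 in gut control and 11.82 in gut K14, against 7.14 in splenic K14 and no detection in splenic control. Il21 and Lif were undetected in both splenic samples and at least 2.0-fold and 1.55-fold higher in gut. Tnfsf11, which encodes RANKL, and Fasl, the death ligand, completed the 10, with mean differences of 2.48 and 1.69. Tnf, Ltb and Tgfb1 were outside the rule, with mean differences of 0.78, −0.75 and −0.52.

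Of 46 listed lineage and activation transcription factors 29 were tested, none passed the test, and the median was 0.21. Higher by the rule were 6 (20.7%, beside 5.71% of all genes) and lower were 2 (6.9%, beside 3.49%). Nfil3, a basic leucine zipper factor of helper and innate cells, read 8.74 in splenic control, was undetected in splenic K14 and read 12.91 and 12.89 in gut. Irf4 and Batf, which act together in activated T cells, differed by 3.82 and 2.58 and by 1.15 and 2.27. Vdr, the vitamin D receptor, read 7.65 and 8.61 in spleen and 10.54 and 12.16 in gut. Rora, a factor of type 17 and innate cells, was undetected in both splenic samples and at least 2.37-fold higher in gut. Crem, a cyclic AMP-responsive repressor and activator, completed the 6 with a mean difference of 2.64. Id3, an inhibitor of E proteins, read 10.02 and 9.83 in spleen and 8.68 and 7.83 in gut and was, with Lef1, lower by the rule. Tbx21, the master factor of type 1 cells, differed by 1.86 and 0.41, and Bcl6 by 2.19 and 0.80.

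Of 48 listed receptors of costimulation, inhibition and cytokines 35 were tested, with a median of 0.95, or 0.39 with undetected members kept. Of the 35, 13 (37.1%, beside 5.71% of all genes) were higher by the rule and none lower. Besides Ctla4, Tnfrsf4 (OX40), a costimulatory receptor, rose: it read 10.28 and 9.45 in spleen and 13.21 and 12.69 in gut, a difference of 3.08 ± 0.24 (adjusted p = 0.0453). Lag3, an inhibitory receptor for MHC class II, read 8.15 and 7.60 in spleen and 11.43 and 11.66 in gut (adjusted p = 0.0576). Both receptors were higher on each gut array than on either splenic array.

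Icos, Nt5e, Slamf7, Slamf1, Cd44, Cd226, Cd160, Il2rb, Il12rb1 and Il18rap were the other members. Nt5e (CD73), which makes adenosine, differed by 2.66 and 2.76, and Cd44, a marker of antigen-experienced cells, by 1.54 and 1.69. The 2 Cd44 probes were not both higher in gut in both pairs, and the brighter is given. Il12rb1, shared by the receptors of Il12 and Il23, was undetected in spleen and at least 2.76-fold higher in gut. Pdcd1, Cd28 and Tnfrsf18 were outside the rule.

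The Treg list holds many genes that activated Tcon share. Of 21 listed genes 18 were tested, and Itgae, Ctla4, Tnfrsf4 and Socs2 rose. Higher by the rule were 6 (33.3%, beside 5.71% of all genes) and lower was 1 (5.56%, beside 3.49%). Socs2, a suppressor of cytokine signalling, read 8.79 and 9.61 in spleen and 12.05 and 12.37 in gut, a rise of 3.01 ± 0.25 (adjusted p = 0.0486). Nrp1, a marker of thymus-derived Treg, was the member lower in gut, with −3.06 and −1.23. The 11 other members were outside the rule, among them Ikzf4 with −0.32 and 1.41 and Capg, an actin-capping protein, with 0.44 and 2.04, and Il2ra and Ikzf2 were undetected on all 4 arrays.

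Of 29 listed cytotoxic and NK receptor genes 16 were tested. The 6 higher by the rule (37.5%) and the 1 lower (6.25%) stand beside 5.71% and 3.49% of all genes. The list's median of 0.71 became 0.10 with undetected members kept. Gzmk, a granzyme, was undetected in both splenic samples and at least 3.41-fold higher in gut. Nkg7, a granule protein, differed by 1.68 and 1.19, and Gzmm, another granzyme, by −2.64 and −1.13. Klrk1 and Klrd1, receptors of NK and CD8 T cells, were both lower in gut in the control pair and higher in the K14 pair. Klrk1 differed by −2.29 and 0.50 and Klrd1 by −2.58 and 0.79. Cd8b1 read 12.97 and 13.38 in spleen and 9.80 and 11.53 in gut, so the sample with the lowest value was gut control.

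Some genes of growth and metabolism met the rule, and none passed the test. Of 37 listed cell cycle genes 23 were tested, of which Mcm3, a replication helicase subunit, and Tyms, thymidylate synthase, were higher by the rule (8.70%, beside 5.71% of all genes tested) and none lower (median 0.30). Of 23 listed glycolysis genes 17 were tested, of which Hk2, a hexokinase, and Egln3, an oxygen-sensing hydroxylase, were higher by the rule (11.8%) and none lower (median 0.08). Hk2 read 10.58 and 11.05 in spleen and 13.05 and 13.82 in gut (adjusted p = 0.0576). Of 33 listed lipid genes 18 were tested, of which Dgat1, which makes triglyceride, Plin2, a lipid droplet coat protein, and Hilpda, a lipolysis inhibitor, were higher (16.7%) and Scd1, a fatty acid desaturase, lower (5.56%, beside 3.49% of all genes), with a median of 0.20. Dgat1 read 8.72 and 8.58 in spleen and 11.94 and 12.47 in gut. Of 36 listed interferon-stimulated genes 29 were tested, of which Gbp3, a guanylate-binding protein, was higher and Trim25, a ubiquitin ligase, lower by the rule (3.45% each), and the median was −0.35. With undetected members kept, the medians of these 4 lists were 0.11, 0.03, 0.08 and −0.22.

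**Figure D4:**
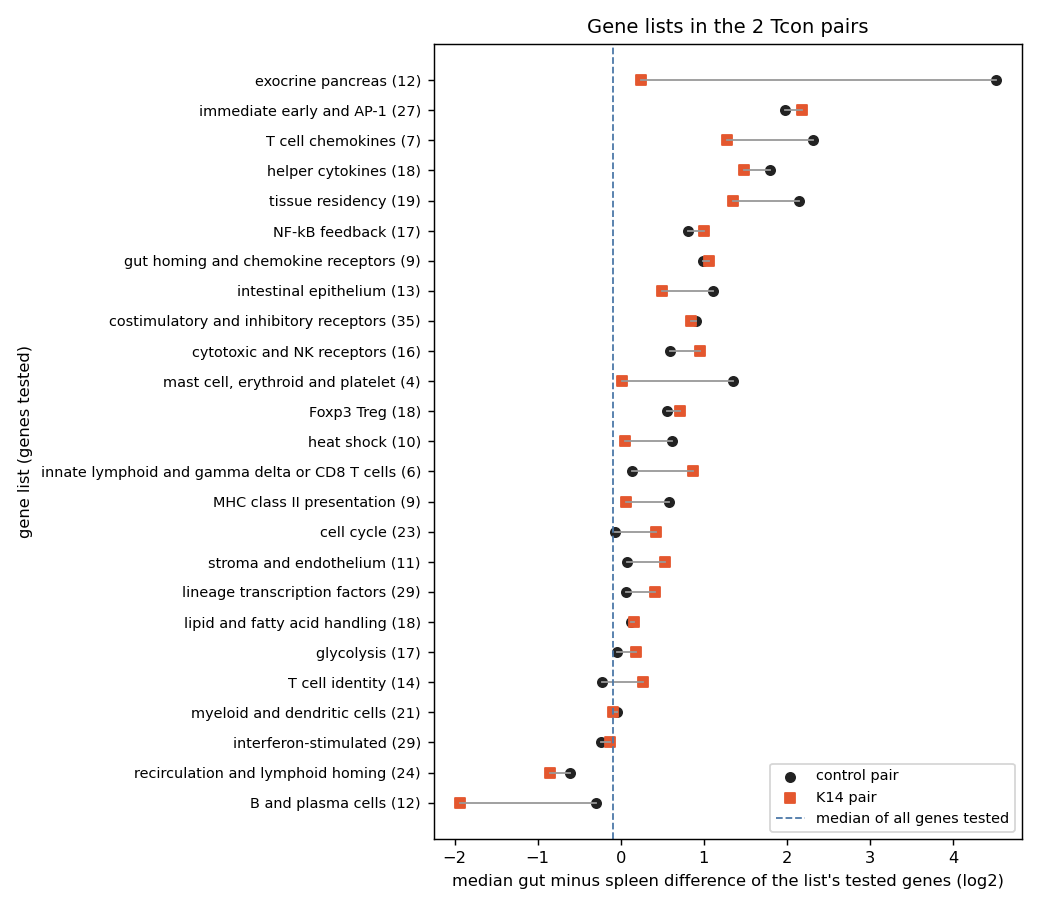
Median gut minus spleen log2 difference of each list's tested genes (horizontal axis) in the control pair (circles) and the K14 pair (squares), with the number of genes tested in brackets and the median of all genes as a dashed line. Immediate early, cytokine and residency genes lie above 1 in both pairs, while the exocrine pancreas list is at 4.51 in the control pair and 0.24 in the K14 pair.

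Other genes that rose belong to none of these T cell lists. Ier5l, a relative of the immediate early gene Ier5, was undetected in both splenic samples, read 13.26 and 12.99 in gut and rose at least 79.6-fold (adjusted p = 0.0453). St6galnac2, which adds sialic acid to O-linked sugars, read 8.97 and 9.58 in spleen and 13.23 and 14.21 in gut. Hey1, a repressor downstream of Notch, read 6.89 and 6.95 in spleen and 11.45 and 11.05 in gut. Each of these genes had gut values far above its splenic values, and the latter genes rose by 4.44 ± 0.30 and 4.33 ± 0.25 (both adjusted p = 0.0453).

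Ahrr, the repressor of the aryl hydrocarbon receptor, read 6.85 and 7.27 in spleen and 10.81 and 11.63 in gut and rose by 4.16 ± 0.27 (adjusted p = 0.0453). The receptor gene itself, Ahr, was not analysed here. Il1r2, the decoy receptor of IL-1, read 7.70 and 8.89 in spleen and 11.80 and 12.94 in gut and rose by 4.08 ± 0.29 (adjusted p = 0.0453). Its 2 pairs gave nearly the same difference, although K14 lay above control in both tissues.

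The glycosyltransferase gene B4galnt4 rose by 4.05 ± 0.25 and Caskin2 by 4.14 ± 0.35 (adjusted p = 0.0453 and 0.0486). Further genes that rose were Cdk5r1, an activator of a cyclin-dependent kinase, Rin2, Prnp, the prion protein, Osgin1, an oxidative stress gene, Plk3, a stress kinase, Osbpl3, an oxysterol-binding protein relative, and H1f2, a linker histone. Their differences ran from 2.78 (H1f2) to 3.52 (Rin2). Epb41l3, Rsph1, Prr18, Cetn4 and Serpinf1 also rose, each from no detection in both splenic samples, by at least 7.54-fold, 4.97-fold, 8.20-fold, 3.80-fold and 2.89-fold. The 2 probes of Epb41l3 were not both higher in gut in both pairs. The genes of this paragraph other than B4galnt4, Caskin2 and Gja1 were named after their values were seen. H1f2 was the gene nearest the threshold from inside (adjusted p = 0.0494), and Gja1, a gap junction protein undetected in spleen and at least 18.3-fold higher in gut, the nearest from outside (adjusted p = 0.0507).

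The 4 genes that fell are not on any T cell list. Cnn3, an actin-binding calponin, read 9.93 and 10.81 in spleen and 6.86 and 7.58 in gut and fell by 3.15 on the log2 scale (SE 0.25, adjusted p = 0.0453). Tmem108, Brdt and Anapc11 were undetected in both gut samples and fell at least 7.64-fold, 6.46-fold and 4.94-fold (each adjusted p = 0.0453). Brdt is a bromodomain protein best known from testis, and Anapc11 is a subunit of the anaphase-promoting complex. Tmem108 read 9.52 and 9.61 in spleen, Brdt 9.12 and 9.53 and Anapc11 8.97 and 8.91.

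Several of the genes with the largest differences are known from other cell types. S100a9, Ltf and Camp, made by neutrophils, were undetected in both gut samples and at least 25.1-fold, 35.6-fold and 16.2-fold lower than in spleen. S100a9 read 9.87 in splenic control and 12.69 in splenic K14, Ltf 10.18 and 13.39, and Camp 9.10 and 12.20. All were higher in splenic K14 than in splenic control, and their adjusted p-values were 0.106, 0.113 and 0.167. Slc4a1, the anion exchanger of red cells, was undetected in gut and at least 10.3-fold lower (adjusted p = 0.0762).

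Of 12 B and plasma cell genes tested, 4 were lower in gut by the rule (Cd79b, Btk, Fcmr and Fcrla) and Sdc1 higher. These shares of 33.3% and 8.33% stand beside 3.49% and 5.71% of all genes. The list's medians were −0.30 in the control pair and −1.93 in the K14 pair. Of 21 myeloid genes tested, 4 were higher in gut by the rule (19%, beside 5.71% of all genes) and 3 lower (14.3%, beside 3.49%). In both pairs 8 were above 0 and 9 below 0, beside 2084 and 3012 of all 7916 genes. The list's median was −0.16. The macrophage genes C1qa, C1qb, C1qc and Apoe were the higher members, with mean differences of 2.05 to 2.66. S100a8, S100a9 and Ccl9 were the lower members, Ccl9 with −1.27 and −1.25. The signalling adaptors Tyrobp and Fcer1g were below 0 in both pairs, at −0.40 and −1.33 and at −0.71 and −0.13. C1qa, a complement subunit, read 7.99 in gut control and 10.09 in gut K14, against no detection in splenic control and 6.98 in splenic K14.

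Reg3b, an antimicrobial lectin of gut epithelium, is the gene of these lists that rose: it was undetected in spleen, read 11.76 and 10.12 in gut and was at least 17.4-fold higher (adjusted p = 0.0454). Krt8, Muc13, Tff3 and Cdh1 of the epithelial list were higher by the rule as well. So were Zg16, Reg1, Tff2 and Cela1 of the pancreas list. With Reg3b these were 5 of 13 epithelial genes tested (38.5%) and 4 of 12 pancreas genes tested (33.3%). The share of all genes was 5.71%, and no member of either list was lower by the rule. Krt8, a keratin, read 6.75 and 6.97 in spleen and 11.48 and 9.60 in gut. Zg16, a secretory granule lectin, read 11.59 and 9.42 in gut and was undetected in spleen. Of 9 MHC class II genes tested, Ciita was higher and H2-Ob lower by the rule. These shares of 11.1% each stand beside 5.71% and 3.49% of all genes. H2-Ab1, at 11.63 and 13.20 in spleen, read 12.25 and 12.87 in gut.

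The Treg arrays allow the same tissue difference to be set beside that of Tcon. The difference between both differences was tested for all 7916 genes in the same limma fit, and 0 genes (0%) passed at an adjusted p under 0.05. The lowest adjusted p was 0.284, and 555 genes had an unadjusted p under 0.05. Of the 452 genes higher in gut Tcon, 314 (69.5%) were above 0 in both Treg pairs and 162 (35.8%) were at least 2-fold higher in gut Treg in both pairs, beside 28.6% and 4.80% of all genes. Of the 276 lower genes, 169 (61.2%) were below 0 in both Treg pairs and 64 (23.2%) were 2-fold lower, beside 34.4% and 3.07% of all genes. The median difference of the 452 genes was 2.21 in Tcon and 1.04 in Treg. These genes were chosen on the Tcon values, so the smaller Treg median is a description only.

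Among the 36 genes, those of the early response and of NF-kB were higher in gut in all 4 pairs, by unlike amounts. Fos differed by 4.18 and 3.96 in the Tcon pairs and by 3.74 and 3.17 in the Treg pairs, and Tnfaip3 by 3.67 and 4.12 and by 3.40 and 4.04. Nfkbiz differed by 4.14 and 3.75 in Tcon and by 2.72 and 2.85 in Treg, Rgs1 by 4.99 and 5.35 and by 2.26 and 2.54, and Ier5l by 7.20 and 6.22 and by 2.73 and 2.40. The Treg arrays of Rgs1 and Ier5l lay above the Tcon arrays in spleen, and the difference between cell types did not pass for any of these genes (adjusted p of 0.302 to 0.974). Hey1, Cdk5r1 and Bhlhe40 had differences above 3 in all 4 pairs. For Itgae the Treg pairs gave 2.11 and 1.23, and for Ctla4 1.76 and 1.90. The Tcon minus Treg difference was 4.69 ± 0.56 for Itgae (adjusted p = 0.316) and 3.72 ± 0.38 for Ctla4 (adjusted p = 0.284). In splenic Treg Itgae already read 13.56 and 14.83, and Ctla4 14.25 and 13.96. Both gut Treg intensities of Ctla4 and the gut Treg K14 intensity of Itgae lay above 60000, near the top of the scale. These Treg differences may therefore be compressed, which was not tested. Il17a and Il17f were undetected on all 4 Treg arrays, so their Treg differences carry no measured size, and the adjusted p of the difference between cell types was 0.284 for each.

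By the rule for naming, the genes with the largest Tcon minus Treg differences were Tbc1d2, Sptb, Fam20a, Zg16 and Scin upward and Aplf, Ltf, Plekha5, Arap3 and Spon2 downward, and none passed the test. Tbc1d2, a Rab GTPase activator, was undetected in splenic Tcon and read 12.85 and 11.29 in gut Tcon, while its Treg pairs gave 1.31 and −0.97. Aplf, a DNA repair factor, differed by −4.29 and −2.46 in Tcon and by 3.07 and 3.39 in Treg, where both splenic arrays were undetected. Zg16 was undetected on all 4 Treg arrays. Fam20a and Sptb were undetected in gut Treg K14 and detected on the other Treg arrays. Their Treg pairs gave 2.21 and −5.20 for Fam20a and 0.05 and −3.66 for Sptb. The negative K14 values of both genes thus rest on that array.

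**Figure D5:**
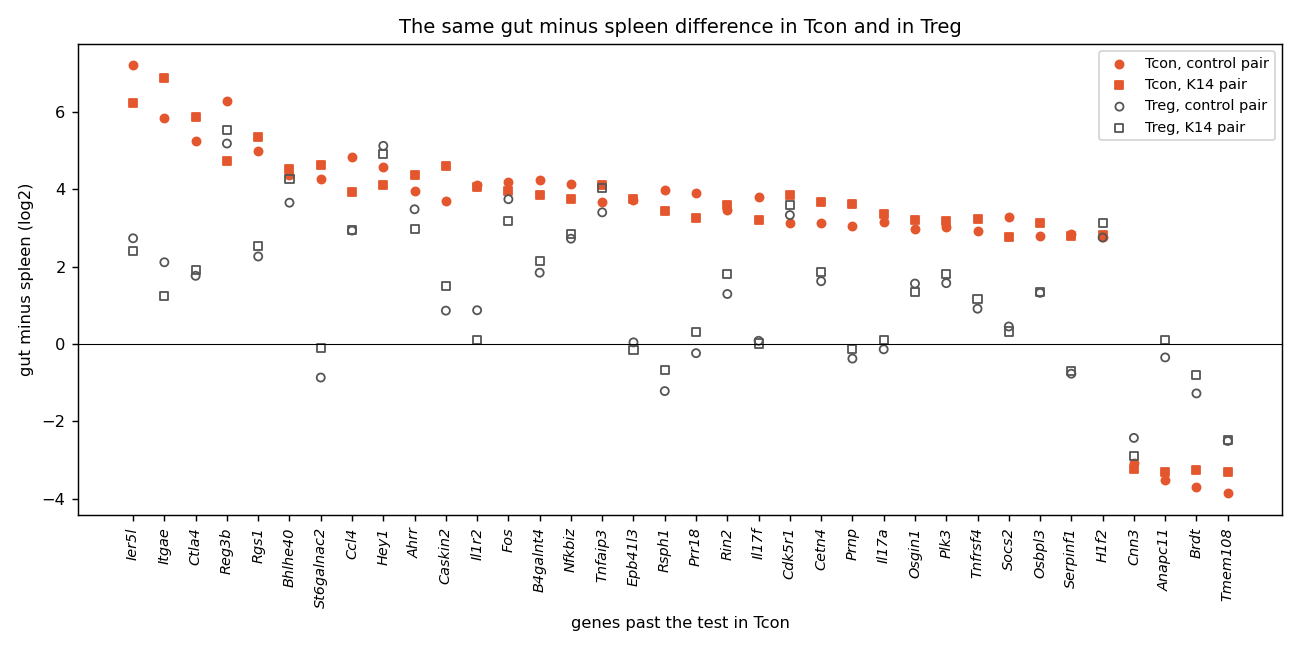
Gut minus spleen log2 difference (vertical axis) of the 36 genes past the test, in the Tcon pairs (filled) and the Treg pairs (open), circles for control and squares for K14. Fos, Tnfaip3, Hey1 and H1f2 have like differences in all 4 pairs, Il17a and Il17f are near 0 in Treg, where they were undetected, and Rsph1 and Prnp, detected on all 4 Treg arrays, are below 0 in both Treg pairs.

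The control and the K14 pair have 1 array per group, so their differences from each other have no test. Among list members, those far apart in 1 pair and not in the other included Il17re, an Il17 receptor chain, with 0.87 in the control pair and 5.41 in the K14 pair, and Ccr6, with 0.99 and 5.97. In the opposite sense stood Cela2a, with 9.77 and 0.30, and Ctrl, a digestive protease, with 4.36 and −1.45. The exocrine pancreas list as a whole had a median of 4.51 in the control pair and 0.24 in the K14 pair. The medians of immediate early genes (1.97 and 2.18), of helper cytokines (1.80 and 1.48) and of tissue residency genes (2.14 and 1.35) were above 1 in both pairs.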

How the data were processed

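The authors deposited, per the file headers, 1 linear probe intensity and 1 detection p-value per probe and array, with no background correction or normalization given in the sources used here. Their deposited log2 values of the same arrays, of unknown normalization, served as an alternative only. Per the labels' protocols, RNA was extracted with Trizol, cleaned up, and labelled as biotinylated cRNA.

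Processing used limma 3.58.1 in R 4.3.3: nec took the background from the detection p-values, 16 was added as an offset, quantile normalization followed, and log2 was taken. A probe needed a detection p under 0.05 on 2 or more of 8 arrays, and the brightest probe stood for its gene (7916 genes). A probe table supplied one symbol for 23978 of 25697 probes, updated through Entrez IDs to GRCm38.p6 names. All 8 arrays were fitted with 4 pair blocks (cell type by genotype) and a tissue term in Tcon and in Treg, with 2 residual and 2.21 prior degrees of freedom. The pairing comes from the genotype labels, and replicate numbers run with genotype. A gene was called at a Benjamini-Hochberg adjusted p under 0.05. The fit was tested on simulated data.

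Members, gene lists and comparisons were chosen with earlier results of these data known. Genes were named by rule: the 15 highest and lowest by the smaller pair difference, up to 15 per direction past the test, up to 6 per list, and all 2-fold or called members of the T cell lists. Some of these are given only as counts, and predicted transcripts were skipped.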

Additional observations from a re-analysis of the deposited data

Results flagged for a closer look

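For 14 named genes both Tcon pairs went one way and both Treg pairs the other, which marked the Tcon minus Treg difference for a closer look. That difference was tested in the limma fit over all genes and passed for none of them (adjusted p of 0.284 to 0.641). As log2 values it was 4.99 for Scin, 4.93 for St6galnac2, 4.65 for Rsph1, 3.58 for Prnp and 3.56 for Serpinf1, each with an adjusted p of 0.284. It was 3.10 for Slamf7, 2.29 for Tff3, 2.27 for Sdc1, 1.30 for Cd74, 1.29 for Pdcd1 and 1.22 for Cxcr3. It was −6.61 for Aplf, −4.62 for Plekha5 and −4.44 for Arap3, which were lower in gut Tcon and higher in gut Treg. Slamf7, Tff3 and Sdc1 were undetected on all 4 Treg arrays and St6galnac2 on 3 of 4, so their Treg direction lies within background. Pdcd1 was undetected on both gut Treg arrays, and Aplf and Plekha5 on both splenic Treg arrays. Scin and Serpinf1 were each undetected on 1 gut Treg array, and Cd74, Cxcr3, Prnp, Rsph1 and Arap3 were detected on all 4.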

How the results depend on the processing

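The 2-fold rule kept 452 genes higher and 276 lower in gut Tcon, and between 398 and 499 higher and between 227 and 271 lower with median centring, an offset of 50, a detection p under 0.01 or the mean of a gene's probes. It left 269 and 121 without background correction, 224 and 97 with the authors' deposited log2 values, and 168 and 52 at 4-fold. With 1 pair left out (without replicate 1 or 2), the single-pair rule gave 854 to 1011 higher and 737 to 891 lower. The 32 and 4 genes past limma's test became 49 and 8 without background correction, 55 and 8 with an offset of 50, and 66 and 13 among genes detected on 2 of the 4 Tcon arrays. Without the replicate block, that is without pairing by genotype, 130 and 36 passed. They became 0 and 0 without the detection filter (1954 genes at an unadjusted p under 0.05), 0 and 0 with the 4 Tcon arrays alone (1215), and 0 without either replicate pair (1067 without the control pair, 823 without K14). Fewer arrays were fitted in the latter, and otherwise the cause was not tested. The count of 0 for Tcon against Treg was the same under the 11 alternatives that could give it.

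Directions turned for genes near 0 or unlike in both pairs. Foxp3 was 0.10 with median centring. Without replicate 1 and without replicate 2, respectively, values were 0.07 and −0.14 for Foxp3, −1.45 and 4.36 for Ctrl, −0.33 and 0.62 for H2-Ab1, 1.41 and −0.32 for Ikzf4, 0.79 and −2.58 for Klrd1, 0.50 and −2.29 for Klrk1, −0.28 and 3.25 for Nr4a3, 0.48 and −0.01 for Cd3e, 0.31 and −0.02 for Ikzf2, and 0.19 and −0.02 for Spon2. With undetected genes kept, the median of immediate early genes was 1.53. Such medians stand with some of the other lists above. For the rest, only the median of the tested genes or no median is given. Probes near the top of the scale, 1 array per group, and pooled mice limit all values.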
